A study of Mus musculus with 4 samples.

Results

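The cells described here are the intestinal CD4+ T cells that the authors' deposited cluster name calls Activated, taken from mice that carry a constitutively active TGFβ receptor and from their TGFbR-WT controls. The name was taken from the deposited annotation, and it left 247 of 5080 cells, 130 of them labelled TGFbR-CA and 117 labelled TGFbR-WT. All cells were sorted as YFP+CD4+ from small intestines of C57BL/6 mice aged 7 to 8 months, in which Cre inserted at *Il17a* switches on YFP from *Rosa26*, so that YFP marks a cell that has expressed *Il17a*. In TGFbR-CA mice the same Cre also removes a stop cassette in front of an active form of *Tgfbr1*. TGFbR-WT mice are littermates with the Cre and without floxed alleles. In TGFbR-KO mice, shown only for reference with 318 activated cells, the Cre deletes *Tgfbr2*. Because *Il17a* drives the Cre, the active receptor appears only after a cell has turned on *Il17a*, and both sexes were used in the study.

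TGFβ binds a complex of TGFBR2 and TGFBR1. TGFBR2 phosphorylates TGFBR1, which then phosphorylates SMAD2 and SMAD3, and these enter the nucleus with SMAD4 and bind DNA. The pathway induces its own inhibitors, such as SMAD7 and PMEPA1. In CD4+ T cells it takes part in TH17 differentiation and in retention in the gut, and it restrains the TH1 program. An active TGFBR1 signals without ligand.

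TGFbR-CA is 1 library made from a pool of mice, sequenced in a second run together with TGFbR-WT cells, while TGFbR-KO and other TGFbR-WT cells were in the first run. The TGFbR-WT cells come from 2 samples that cannot be told apart by label in the table, but their names end in 2 suffixes, which split the activated ones into 88 (called the larger set here) and 29 (the smaller set). The suffix sets are technical and are not tied to a run. There are no replicates of TGFbR-CA, so no test was made, and condition, library and pool of mice cannot be told apart. Levels are corrected UMIs (unique molecular identifiers, each standing for 1 captured RNA molecule) per 10000. A gene was called higher or lower by size alone, where its level after 0.1 was added differed by a ratio of at least 1.5 in the same direction against each of the 2 TGFbR-WT sets. Only genes with at least 100 corrected UMIs over the 247 cells were compared, which left 1703 genes. The minimum was summed over both conditions, so a gene could pass it through the side where it was high. Examples with UMIs in TGFbR-CA and TGFbR-WT are *Tsix* (119 and 3), *Penk* (161 and 21) and *Il17f* (119 and 31). On the lower side *Il7r* (63 and 170) and *Ccl20* (61 and 215) are examples. The counts of called genes and the list shares below include such genes. A ratio is given below against the nearer set, which is the smaller of the 2 ratios.

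The activated cells held 532416 corrected UMIs in TGFbR-CA, 321560 in the larger TGFbR-WT set and 122893 in the smaller, with medians of 3729 to 4149 per cell. 3 genes tied to ribosomal RNA or to a mitochondrial synthetase locus, *Gm42418*, *AY036118* and *Lars2*, took 5.67% of the UMIs in TGFbR-CA, 0.415% in the larger set and 0.548% in the smaller, and they were left out of every total. The same 3 genes took 5.79% in the TGFbR-CA cells of the other clusters, so the TGFbR-CA library as a whole stands apart in them. Mitochondrially encoded genes took 0.508% of UMIs in TGFbR-CA against 1.03% and 0.886% in the TGFbR-WT sets. No TGFbR-CA barcode occurred in a TGFbR-WT set, and 1 occurred in TGFbR-KO. *Xist*, which is transcribed from the inactive X chromosome of female cells, was at 4.86 in TGFbR-CA, undetected in the larger TGFbR-WT set, and at 9.49 in the smaller one. TGFbR-CA lay between the TGFbR-WT sets in *Xist*, and the part of this difference in other genes was not tested.

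The 7 genes fixed as markers of these cells (*Il17a*, *Maf*, *Lztfl1*, *Ccr9*, *Cxcr6*, *Ly6a* and *Smco4*) summed to a level of 100.2 in TGFbR-CA, 99.3 in the larger TGFbR-WT set and 97.1 in the smaller, and to 63.0 in TGFbR-KO. The sum is led by *Maf*, and single markers differed more, as given below. Each of the 7 was higher in the activated cells than in the cells of the other clusters within each of the 3 sets. In TGFbR-CA, *Ccr9* was at 14.9 against 1.05, *Cxcr6* at 6.79 against 0.565, *Maf* at 44.1 against 24.5 and *Ly6a* at 1.17 against 0.309. The clusters were made from these same cells, so this describes the name and tests nothing. The 9 T cell markers summed to 118, 123 and 119. Markers of other cells were near 0, with sums of at most 1.06 for any list in any of these 3 sets for CD8 T cells, γδ T cells, B and plasma cells, epithelial, myeloid and stromal cells. *Cd8a*, all of *Tcrg-C1*, *Tcrg-C2* and *Tcrg-C4*, *Ms4a1*, *Krt8*, *Vil1* and *Itgax* were at 0 in TGFbR-CA and TGFbR-WT alike. The 3 regulatory T cell markers *Foxp3*, *Il2ra* and *Ikzf2* summed to 3.90 in TGFbR-CA, 4.31 and 4.17 in TGFbR-WT and 2.93 in TGFbR-KO. Activated cells made up 11.8% of TGFbR-CA cells (95% interval 9.99 to 13.9), 12.4% of the larger TGFbR-WT set (10.1 to 15.1) and 9.73% of the smaller set (6.61 to 13.7). These exact Clopper-Pearson intervals cover counting error only, and they overlap. The same kind of interval is given below for the shares of cells with a UMI of a gene. Cells of a pooled library are not replicates, so intervals that do not overlap are no test of a difference.

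To show sequence beside the values, 4 promoters of genes described below are given from RefSeq, each running from 250 bases before to 50 bases after an annotated start. *Il17f* had the largest ratio among the cytokine genes that were higher, *Il21r* and *Il7r* are receptors that were called in opposite directions, and *Cst7* is the granule gene that was lower. The windows, all in GRCm38.p6, are chr1:20784221-20784520 on the minus strand for *Il17f*, chr7:125603179-125603478 on the plus strand for *Il21r*, chr15:9529827-9530126 on the minus strand for *Il7r* and chr2:150570165-150570464 on the plus strand for *Cst7*. Capitals mark a match, on either strand, to the SMAD-binding letters CAGACA or to the AP-1 letters TGANTCA.
Il17f: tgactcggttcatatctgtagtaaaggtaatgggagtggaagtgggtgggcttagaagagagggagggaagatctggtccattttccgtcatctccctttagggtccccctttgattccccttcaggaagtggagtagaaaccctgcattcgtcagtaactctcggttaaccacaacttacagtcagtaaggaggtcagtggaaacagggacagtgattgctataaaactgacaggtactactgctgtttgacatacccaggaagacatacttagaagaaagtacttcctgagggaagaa
Il21r: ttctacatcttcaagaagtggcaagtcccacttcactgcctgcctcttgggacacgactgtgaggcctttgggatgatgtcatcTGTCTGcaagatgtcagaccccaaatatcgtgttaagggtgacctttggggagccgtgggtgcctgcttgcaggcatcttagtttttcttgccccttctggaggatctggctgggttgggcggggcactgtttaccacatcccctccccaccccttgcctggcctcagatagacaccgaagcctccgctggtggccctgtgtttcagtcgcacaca
Il7r: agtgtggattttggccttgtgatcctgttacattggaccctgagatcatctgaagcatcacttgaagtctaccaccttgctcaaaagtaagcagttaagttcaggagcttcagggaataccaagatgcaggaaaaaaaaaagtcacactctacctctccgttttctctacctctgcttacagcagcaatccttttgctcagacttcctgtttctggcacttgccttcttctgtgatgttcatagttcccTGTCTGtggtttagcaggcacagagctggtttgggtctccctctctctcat
Cst7: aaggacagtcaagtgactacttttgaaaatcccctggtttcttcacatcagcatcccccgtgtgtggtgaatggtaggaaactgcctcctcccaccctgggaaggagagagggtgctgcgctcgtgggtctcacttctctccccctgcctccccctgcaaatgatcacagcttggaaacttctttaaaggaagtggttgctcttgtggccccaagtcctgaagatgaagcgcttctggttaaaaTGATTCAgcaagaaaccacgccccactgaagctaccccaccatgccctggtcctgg
The CAGACA match began 166 bases before the start in *Il21r* and 1 base before it in *Il7r*, both on the strand opposite to the gene, and the AP-1 match began 6 bases before the start in *Cst7*. The *Il17f* window held neither. The *Il17f* and *Il7r* windows both lie inside the gene spans given below, downstream of the outermost GENCODE start. They therefore do not show the sequence before that start. Of the called genes, 15 of 22 higher and 17 of 23 lower ones had a promoter in the RefSeq set. CAGACA was present for 3 of the 15 (*Il21r*, *Olfr60* and *Rab8b*) and for 5 of the 17 (*Il7r*, *Mical1*, *Rps15*, *Tpm3* and *Wnk1*), beside 23.6% of all genes with a promoter and 21.0% of all promoters. TGANTCA was present for none of the 15 and 1 of the 17, beside 8.97% of genes and 7.81% of promoters. The SMAD palindrome GTCTAGAC was in 0.213% of promoters and in none of the called genes. None of these motifs contains another. These are descriptions of letters in a short window, and *Penk*, *Tsix*, *Neat1* and the mitochondrial genes had no entry.

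The first question of the comparison was how far gene levels in activated TGFbR-CA cells differed from those in TGFbR-WT cells of the same cluster name. Few genes stood apart from both TGFbR-WT sets. Of 1703 genes, 22 were called higher (1.29%) and 23 lower (1.35%), 45 in all (2.64%). The median log2 ratio of all compared genes was -0.01 against pooled TGFbR-WT. The TGFbR-WT sets differed from each other by the same ratio in 419 genes (24.6%), and in cells of all other clusters the rule called 40 of the 1703 genes (2.35%). Against the larger set alone 101 genes were higher and 97 lower, and against the smaller set alone 175 and 178. Most differences from one set were therefore not shared with the other.

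**Figure D1:**
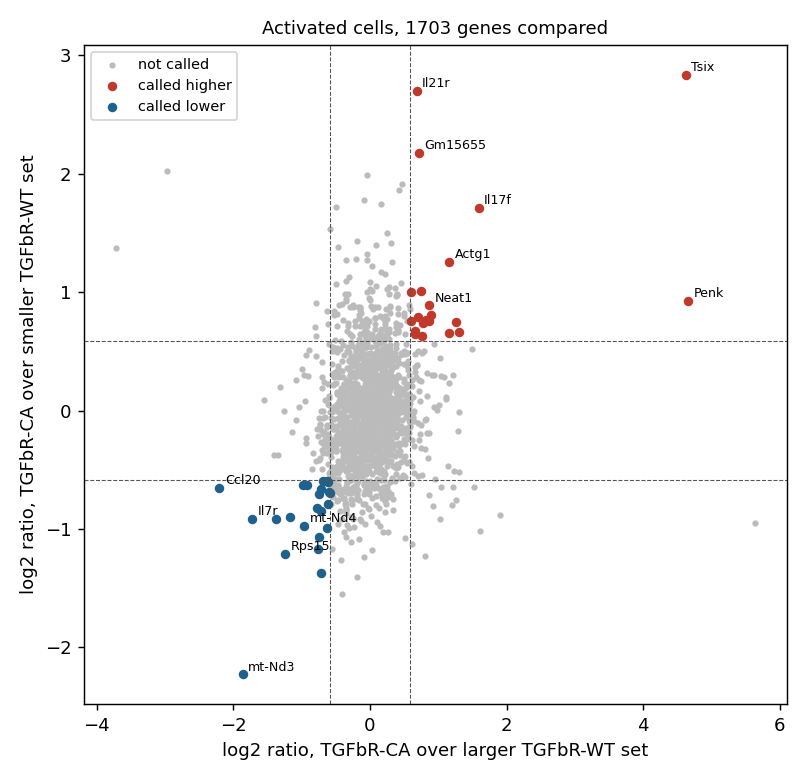
Each point is 1 of 1703 genes in activated cells, placed by its log2 ratio of TGFbR-CA over the larger TGFbR-WT set (x axis) and over the smaller set (y axis). Dashed lines mark a ratio of 1.5. The 22 red and 23 blue points past both lines are the called genes, and the cloud is spread more widely along the axis of the 29-cell set.

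The receptor and its ligand come first, since *Tgfbr1* is the gene that TGFbR-CA mice overexpress in active form. *Tgfbr1* (chr4:47353222-47414931, plus strand) was at 1.53 in TGFbR-CA, 0.468 in the larger set, 2.45 in the smaller set and 0.304 in TGFbR-KO. TGFbR-CA was above one TGFbR-WT set and below the other, so the level does not mark the cells labelled TGFbR-CA. Whether the 3′ tags of this assay count the transgene is not given in the sources used here. *Tgfbr2*, the ligand-binding chain, was at 2.15 in TGFbR-CA against 1.5 and 1.8, the only member of its list above both sets, with a ratio of 1.18. In TGFbR-KO, whose *Tgfbr2* is deleted by label, it was at 1.81, not below either TGFbR-WT set, and whether the counted tags lie in the deleted part is not given in the sources used here. *Tgfb1*, the ligand gene, was at 2.21 between 1.09 and 3.35. *Furin*, a protease that processes pro-TGFβ1, was at 7.19, below 15.3 and 7.61. Of 5 compared genes of the list of TGFβ receptors, ligand and Smads, none was called, beside 2.64% of all compared genes. The median log2 ratio of the list was 0.35 over pooled TGFbR-WT but 0.49 over the larger and -0.21 over the smaller set.

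Of 11 compared TGFβ response and feedback genes, 4 were above both TGFbR-WT sets, 2 below both and 5 between. *Smad7*, an inhibitory Smad, was at 1.97 in TGFbR-CA and at 1.62 and 2.29 in TGFbR-WT, with 0.773 in TGFbR-KO. *Pmepa1*, which sequesters receptor Smads, was at 1.93 between 1.41 and 2.54, with 0.197 in TGFbR-KO. *Skil*, a transcriptional corepressor of Smads, was at 1.69 between 1.16 and 3.68, with 0.386 in TGFbR-KO. In all 3, TGFbR-KO was below each of the other sets, and TGFbR-CA was not above both TGFbR-WT sets. *Nt5e*, which encodes the ectoenzyme CD73, was at 3.92 in TGFbR-CA, 3.28 and 3.52 in TGFbR-WT and 0.756 in TGFbR-KO. *Pard6g*, a polarity gene, was at 1.53, 1.41, 1.31 and 0.148 in the same order. Both exceeded the TGFbR-WT sets only slightly. The 1 called gene of the 11 was *Penk*, beside 2.64% of all compared genes, and the median log2 ratio of the list was 0.12. *Itgae*, the αE integrin chain of gut-retained T cells, had too few UMIs to be compared, at 0.418 in TGFbR-CA and 0.531 and 2.13 in TGFbR-WT.

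*Penk* (chr4:4133531-4138819, minus strand) encodes proenkephalin, the precursor of enkephalin opioid peptides. Its level was 3.21 in TGFbR-CA, 0.0312 in the larger set, which held 1 UMI, 1.64 in the smaller set and 0.263 in TGFbR-KO. The ratio to the nearer, smaller set was 1.90. Only a few cells carried it. A *Penk* UMI was present in 16 of 130 TGFbR-CA cells (12.3%, interval 7.2 to 19.2), 1 of 88 and 3 of 29 TGFbR-WT cells. A single TGFbR-CA cell with 57 UMIs held 35.4% of the total, and without it the ratio was 1.26, below the call. In the other clusters the levels were 0.703 in TGFbR-CA, 0.570 in the larger set and 1.83 in the smaller, so there TGFbR-CA lay between the sets.

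**Figure D2:**
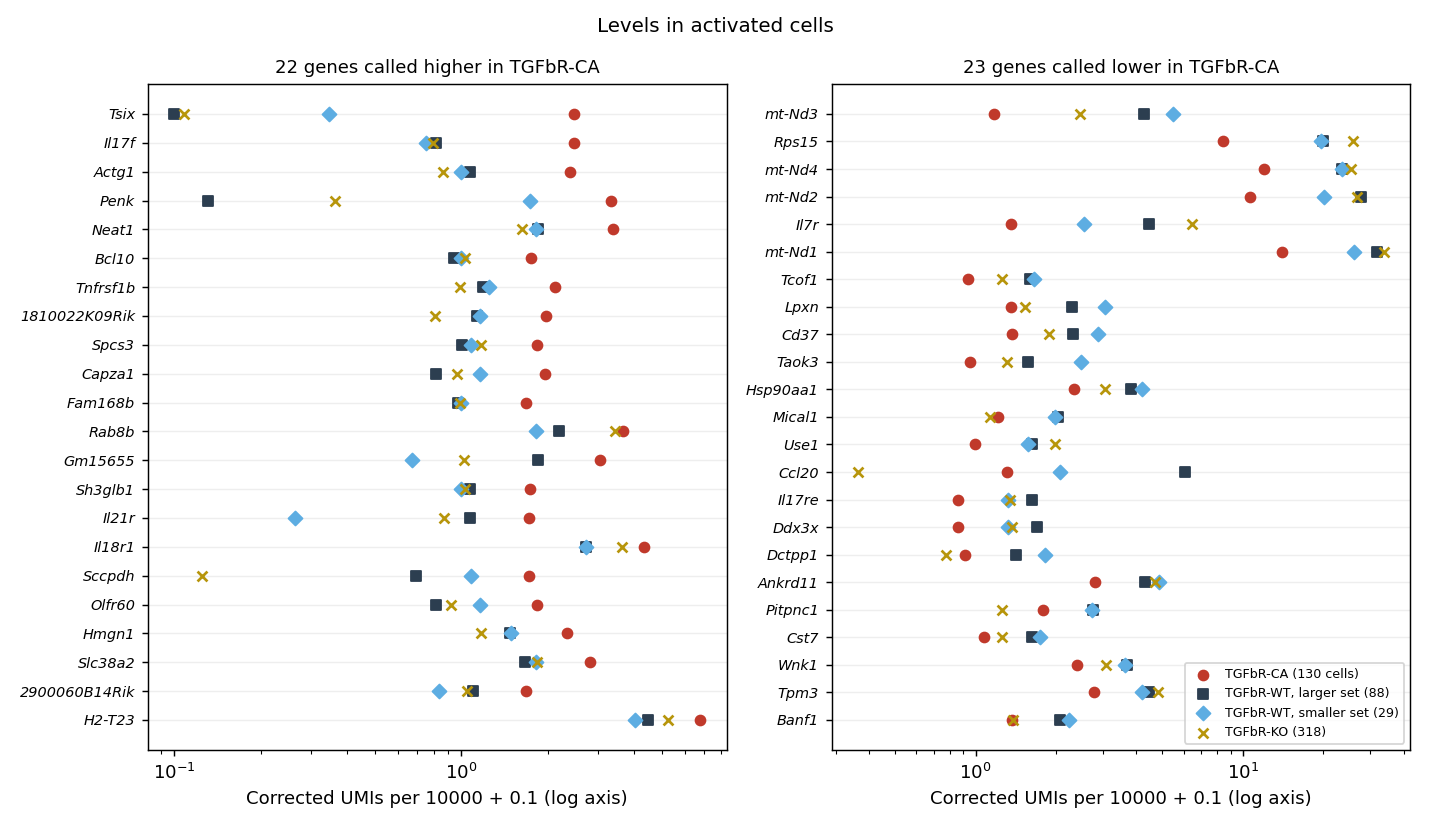
Levels in activated cells of the 22 genes called higher (left) and the 23 called lower (right), in corrected UMIs per 10000 with 0.1 added, on a log axis and ordered by the ratio to the nearer TGFbR-WT set. Red circles are TGFbR-CA, dark squares and light diamonds the larger and smaller TGFbR-WT sets, and crosses TGFbR-KO, which did not enter the calls. *Il17f* stands at 2.37 in TGFbR-CA against 0.718 and 0.655, and *Il7r* at 1.254 against 4.37 and 2.45.

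Among TH17 genes, *Il17f* was higher and *Il17re* lower, and the other 13 compared members of the list were not called. The share called was 13.3%, beside 2.64% of all compared genes. *Il17f* (chr1:20777146-20790617, minus strand), a cytokine of the IL-17 family, was at 2.37 in TGFbR-CA, 0.718 in the larger set and 0.655 in the smaller, and at 0.699 in TGFbR-KO. The ratio was 3.02, with both TGFbR-WT sets and TGFbR-KO close together. The share of cells with a UMI was alike, at 21 of 130 TGFbR-CA cells (16.2%, 10.3 to 23.6), 14 of 88 (15.9%, 8.98 to 25.2) and 6 of 29 (20.7%, 7.99 to 39.7). The difference lay in the UMIs per positive cell. In TGFbR-CA 11 cells had 3 or more UMIs and 1 cell had 53, while the highest values in the TGFbR-WT sets were 4 and 3. That 1 cell held 44.5% of the TGFbR-CA UMIs, and without it the ratio was 1.74. Over the tissue-resident TFH cells of TGFbR-WT, which have little *Il17f*, the shares with a UMI were 0.306% and 2.26% of cells in the larger and the smaller set. In clusters other than the activated one, *Il17f* was at 0.408 in TGFbR-CA, between 0.368 and 0.848.

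*Il17a*, the signature cytokine of the lineage and the site of the Cre, was at 12.2 in TGFbR-CA, 5.22 in the larger, 19.1 in the smaller set and 1.51 in TGFbR-KO. TGFbR-CA was well inside the wide span of the TGFbR-WT sets. *Maf*, a transcription factor abundant in these cells, was at 44.1 beside 43.7 and 34.2, and at 21.6 in TGFbR-KO. *Ahr*, the aryl hydrocarbon receptor, was at 2.53 between 4.84 and 2.05. *Il17re* (chr6:113458484-113470758, plus strand), a receptor chain for IL-17C, was at 0.757 in TGFbR-CA and at 1.53 and 1.23 in TGFbR-WT, a ratio of 1.55. It was also the lower side in the other clusters, at 0.143 against 0.409 and 0.516. The median log2 ratio of the 15 TH17 genes was -0.23, with 3 above both sets, 7 below both and 5 between.

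The list of cytokine receptors and costimulatory genes had 4 calls, 3 higher and 1 lower of 14 compared (28.6%), beside 2.64% of all compared genes. The median log2 ratio of the list was 0.17. *Tnfrsf1b* (chr4:145213463-145246870, minus strand), the type 2 receptor for TNF, was at 2.01 in TGFbR-CA, 1.09 and 1.15 in TGFbR-WT and 0.888 in TGFbR-KO, a ratio of 1.69. It was spread over many cells. A UMI was found in 65 of 130 TGFbR-CA cells (50%, 41.1 to 58.9) against 22 of 88 (25%, 16.4 to 35.4) and 9 of 29 (31.0%, 15.3 to 50.8). The highest single cell had 5 UMIs, and the ratio without it was 1.63. In tissue-resident TFH cells the shares were 9.89% in TGFbR-CA, 8.26% in the larger set and 12% in the smaller. The TFH cluster shown beside activated cells, here and for other genes, was picked for its lowest share among clusters of sufficient size. Over all other clusters the level was 0.471, against 0.354 and 0.442.

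*Il18r1* (chr1:40465552-40500854, plus strand), the binding chain of the IL-18 receptor, was at 4.22 in TGFbR-CA against 2.62 in both TGFbR-WT sets, with 3.53 in TGFbR-KO, a ratio of 1.59. It was detected in 91 of 130 TGFbR-CA cells (70.0%, 61.3 to 77.7), 45 of 88 (51.1%, 40.2 to 61.9) and 15 of 29 (51.7%, 32.5 to 70.6), and in 8.37%, 12.1% and 12.1% of germinal center TFH cells. The other clusters went the other way, with 1.22 in TGFbR-CA below 1.42 and 1.78. By cluster, TGFbR-CA was above both sets in migratory cells too, at 4.95 against 4.12 and 3.86, and below both in tissue-resident TFH cells, at 1.04 against 1.17 and 1.75. *Il21r* (chr7:125603429-125633570, plus strand), the receptor for IL-21, was at 1.61 against 0.968 and 0.164, with 0.773 in TGFbR-KO. The nearer ratio was 1.6, and 1.45 without the highest TGFbR-CA cell. The smaller set had only 2 positive cells. *Il17ra*, the shared receptor chain for IL-17A and IL-17F, was at 1.254 against 0.843 and 0.818, under the ratio of 1.5.

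*Il7r* (chr15:9505788-9530176, minus strand), the α chain of the receptor for the survival cytokine IL-7, had the largest ratio among the immune genes called lower. Its level was 1.254 in TGFbR-CA, 4.37 in the larger set, 2.45 in the smaller set and 6.34 in TGFbR-KO, a ratio of 1.89. TGFbR-CA was the lowest and TGFbR-KO the highest of the 4 sets. A UMI was present in 25 of 130 TGFbR-CA cells (19.2%, 12.8 to 27.1), 35 of 88 (39.8%, 29.5 to 50.8), 8 of 29 (27.6%, 12.7 to 47.2) and 164 of 318 TGFbR-KO cells (51.6%, 45.9 to 57.2). The shares in germinal center TFH cells, where *Il7r* is low, were 7.98%, 9.93% and 20.7% in TGFbR-CA and the larger and smaller sets. The comparison with the smaller set rested on few cells, and without the highest cell of each TGFbR-WT set the nearer ratio was 1.26. Without the 2 highest cells of every set, TGFbR-CA included, the nearer ratio was 1.03, so little difference from the smaller set was left. In the other clusters *Il7r* was at 3.55, below 6.52 and 4.11. Its list of stemness and quiescence genes had 6 compared members, of which *Il7r* alone was called, beside 2.64% of all compared genes. *Satb1*, a chromatin organizer of that list, was at 1.12 against 3.12 and 1.47.

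**Figure D3:**
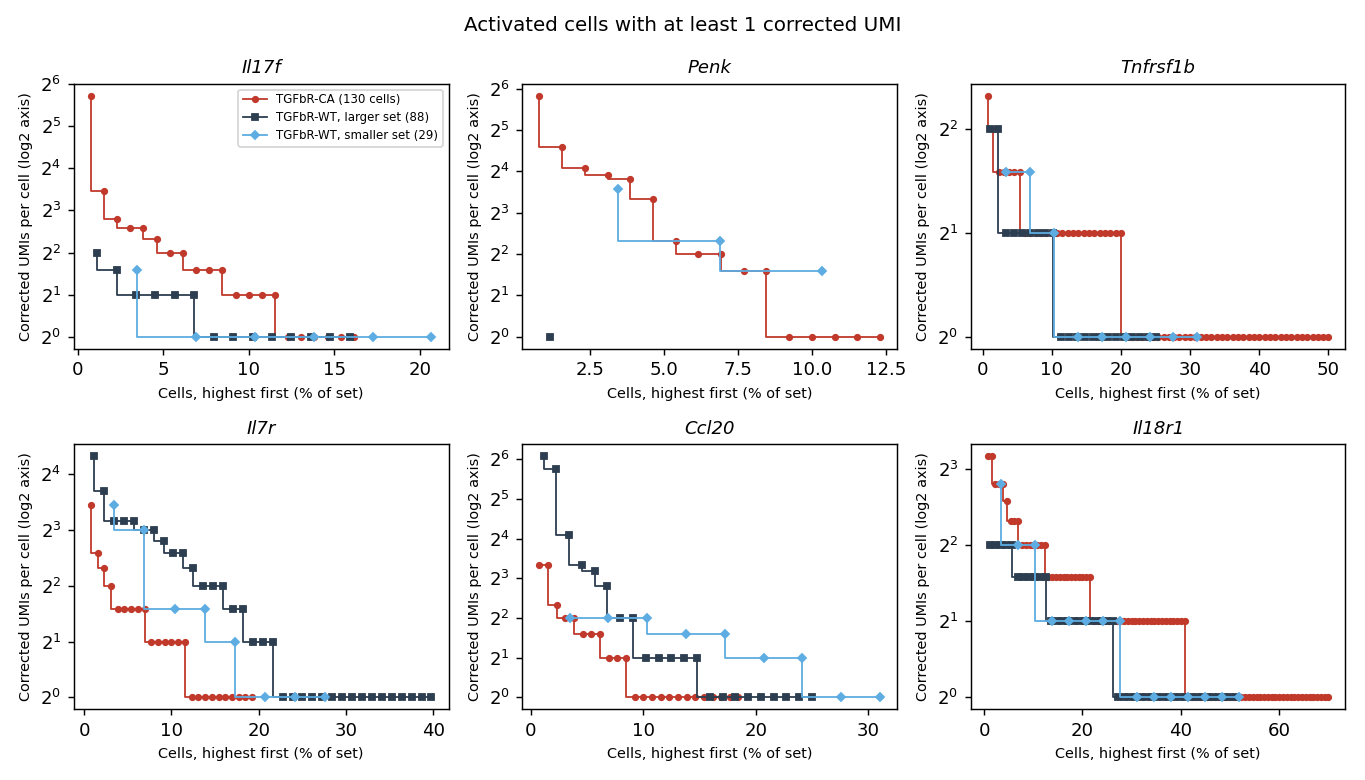
Corrected UMIs per cell (log2 axis) for 6 genes, over the activated cells with at least 1 UMI, ranked from the highest and placed by their percent of the set. Red is TGFbR-CA, dark the larger and light the smaller TGFbR-WT set. *Tnfrsf1b* and *Il18r1* reach further to the right in TGFbR-CA (50% and 70% of cells), while *Il17f* and *Penk* are set by a few cells with up to 53 and 57 UMIs.

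Chemokine and homing genes gave 1 call. *Ccl20* (chr1:83116766-83119167, plus strand), the chemokine ligand of CCR6, was at 1.21 in TGFbR-CA, 5.96 in the larger, 1.96 in the smaller set and 0.263 in TGFbR-KO, a ratio of 1.57. A UMI was present in 24 of 130 cells (18.5%, 12.2 to 26.2), 22 of 88 (25%, 16.4 to 35.4) and 9 of 29 (31.0%, 15.3 to 50.8), and in 0.540% of tissue-resident TFH cells of TGFbR-CA. A single cell of the larger set with 67 UMIs held 31.2% of the TGFbR-WT total. Without the highest cell of each TGFbR-WT set the log2 ratio to the larger set went from -2.21 to -1.61. The ratio to the nearer, smaller set, whose highest cell had 4 UMIs, was then 1.37. *Ccr9*, the receptor for the small-intestinal chemokine CCL25, was at 14.9 between 14.3 and 18.8. *Cxcr6*, a receptor of tissue-resident T cells, was at 6.79 against 11.3 and 7.36, a ratio of 1.08. Of 10 compared homing and retention genes none was called, beside 2.64% of all compared genes, and their median log2 ratio was -0.25.

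The lists of TH1 (7 compared) and of cytotoxic genes (5 compared) had 1 call each, beside 2.64% of all compared genes. *Ifng*, the TH1 cytokine, was at 1.19 in TGFbR-CA, 1.53 and 1.47 in TGFbR-WT and 2.0 in TGFbR-KO. *Tbx21*, which encodes T-BET, was under the minimum at 0.0199, 0.0312, 0 and 0.238 in that order. *Ccl5*, an effector chemokine, had a UMI in 0 of 130 TGFbR-CA cells (0%, interval 0 to 2.80), which does not limit the share of expressing cells. The levels of *Ccl5* were 0.406 and 0.0818 in TGFbR-WT and 2.23 in TGFbR-KO. *Gzma* is a granzyme, at 0.637 against 5.71 and 0.0818, and 98.9% of its TGFbR-WT UMIs came from 1 cell. *Gzmb* was at 2.71 between 4.78 and 1.72. *Cst7*, which encodes the cathepsin inhibitor cystatin F of cytotoxic granules, was the 1 called gene of 5 compared in the cytotoxic list, at 0.976 against 1.53 and 1.64, a ratio of 1.52. Without the highest cell of each TGFbR-WT set its ratio was 1.42. The TH1 list of 7 compared genes had 1 call, *Il18r1*, and a median log2 ratio of -0.06.

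Of 7 compared inhibitory receptor genes 0 were called, beside 2.64% of all compared genes, and the median log2 ratio was 0.09. TGFbR-CA was above both TGFbR-WT sets in 2 of the 7 and between the sets in 5. *Lag3* was at 11.4 in TGFbR-CA, 11 and 15.4 in TGFbR-WT and 2.86 in TGFbR-KO. *Ctla4* was at 9.26, 9.52, 5.81 and 4.53 in the same order. *Pdcd1*, which encodes PD-1, had too few UMIs, at 0.777 between 0.468 and 1.31, and so did *Il10*, an anti-inflammatory cytokine, at 0.279 against 0.781 and 0.491. Immediate early and TCR signal genes (15 compared), NF-κB genes (4), interferon response genes (8), S100 and annexin genes (10), mitosis genes (5), TFH genes (4) and glycolysis genes (8) had no called member. Their median log2 ratios ran from -0.27 for S100, annexin and galectin genes to 0.19 for NF-κB genes. *Bcl10*, an adaptor of antigen receptor signaling to NF-κB, was higher but is not on that list. It was at 1.65 in TGFbR-CA against 0.843 and 0.9, a ratio of 1.75, and at 1.5 against 1.08 and 0.912 in the other clusters.

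**Figure D4:**
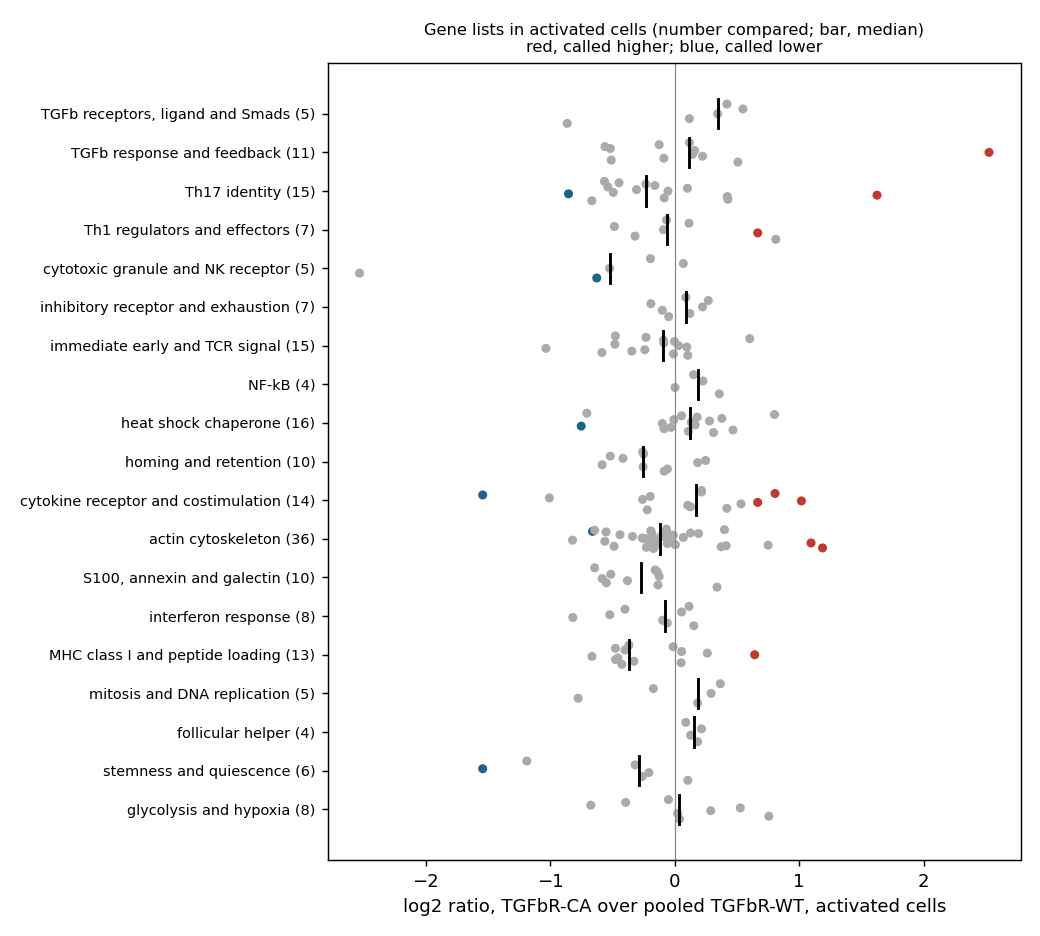
Each point is a compared gene of a fixed list, placed by its log2 ratio of TGFbR-CA over pooled TGFbR-WT in activated cells, with the median as a bar and the number compared beside the name. Red and blue points are called higher and lower. Medians of the drawn lists run from -0.52 for 5 cytotoxic genes to 0.35 for 5 receptor, ligand and Smad genes.

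Class I MHC and chaperone genes had 1 call each, of 13 and 16 compared, beside 2.64% of all compared genes. *H2-T23*, which encodes the nonclassical molecule Qa-1, was at 6.69 in TGFbR-CA against 4.37 and 3.93, a ratio of 1.52. Its list as a whole, which includes *H2-T23*, leaned the other way. Of the 13 compared genes 8 were below both sets and 2 above both, with a median log2 ratio of -0.37. *B2m*, the light chain of class I MHC, was at 23.9 against 33.7 and 27.7. *Hsp90aa1*, an inducible cytosolic chaperone, was at 2.23 against 3.72 and 4.09, a ratio of 1.64, and also lower in the other clusters at 3.19 against 4.40 and 6.26. The other 15 of 16 chaperone genes were not called. Of 26 proteasome and 67 nuclear-encoded respiratory chain genes none was called, with medians of -0.03 and -0.01.

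The actin list had 2 genes called higher and 1 lower of 36 compared (8.33%), beside 2.64% of all compared genes. *Actg1* (chr11:120345690-120348542, minus strand), which encodes cytoplasmic γ-actin, was at 2.29 in TGFbR-CA against 0.968 and 0.9, a ratio of 2.24. *Capza1*, which caps actin filaments, was at 1.85 against 0.718 and 1.06. *Tpm3*, a tropomyosin, was lower at 2.67 against 4.34 and 4.09. All 3 differed the same way in the other clusters, where *Actg1* was at 2.81 against 0.860 and 0.921, *Capza1* at 1.61 against 0.947 and 0.958, and *Tpm3* at 2.51 against 5.0 and 3.24. The 36 compared actin genes had a median log2 ratio of -0.12, and the list summed to 502 in TGFbR-CA against 622 and 657.

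Of 6 compared mitochondrially encoded genes, 4 were called lower (66.7%), beside 2.64% of all compared genes called. These 4 encode subunits of respiratory complex I, and the median log2 ratio of the 6 was -1.04. The other 2 lay between the TGFbR-WT sets, *mt-Co1* at 11.1 between 11.5 and 8.43 and *mt-Nd5*, also a complex I subunit, at 5.1 between 5.53 and 4.17. *mt-Nd3* was at 1.08 in TGFbR-CA against 4.18 and 5.40, a ratio of 3.65. *mt-Nd1* was at 13.9 against 31.6 and 25.9, *mt-Nd2* at 10.6 against 27.6 and 20.0, and *mt-Nd4* at 11.9 against 23.3 and 23.4. In the other clusters *mt-Nd3* was at 1.73 against 5.11 and 6.42, so the lower level of *mt-Nd3* was found in both. *Rps15*, a protein of the small ribosomal subunit, was at 8.36 against 19.9 and 19.5 in activated cells and at 11.6 against 29.7 and 27.1 in the others. It was the 1 call among 78 ribosomal protein genes, of which 41 were above both TGFbR-WT sets, with a median log2 ratio of 0.17.

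*Tsix* and *Neat1* are long noncoding RNAs that were higher. *Tsix* (chrX:103431517-103484957, plus strand) is transcribed antisense to *Xist*, and it was at 2.37 in TGFbR-CA, at 0 in the larger set, and 0.245 (3 UMIs) in the smaller. No ratio is given for it. Whether counting used strand is not stated, so UMIs of *Tsix* and *Xist* cannot be told apart with certainty. *Neat1*, the scaffold of nuclear paraspeckles, was at 3.27 against 1.75 and 1.72, a ratio of 1.82, and at 1.96 against 1.51 and 1.52 in the other clusters. The other called higher genes had ratios from 1.52 to 1.69. They include *Rab8b*, a Rab GTPase (3.56 against 2.09 and 1.72), *Slc38a2*, an amino acid transporter (2.71 against 1.56 and 1.72), *Hmgn1*, a nucleosome-binding protein (2.23 against 1.37 and 1.39), *Spcs3*, a signal peptidase subunit (1.73 against 0.906 and 0.982), and *Sh3glb1*, *Sccpdh*, *Fam168b*, *Olfr60*, *1810022K09Rik*, *Gm15655* and *2900060B14Rik*.

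The other called lower genes had ratios from 1.504 to 1.71. *Lpxn*, which encodes the adhesion adaptor leupaxin, was at 1.254 in TGFbR-CA against 2.19 and 2.95. *Cd37*, a leukocyte tetraspanin, was at 1.27 against 2.22 and 2.78. *Tcof1*, a nucleolar factor of ribosomal RNA synthesis, was at 0.836 against 1.5 and 1.55. In the other clusters *Lpxn* was at 1.38 against 1.54 and 1.56, and *Cd37* at 1.48 against 1.6 and 2.36, smaller differences in the same direction. The rest are *Taok3*, *Mical1*, *Use1*, *Ddx3x*, *Dctpp1*, *Ankrd11*, *Pitpnc1*, *Wnk1* and *Banf1*. At the edge of the call, *Banf1* was inside with a ratio of 1.504 and *Cyfip2*, *Ldha* and *Ranbp2* were just outside. *Ldha*, lactate dehydrogenase A, was at 3.90 against 6.43 and 5.89, and *Ranbp2*, a nuclear pore protein, at 2.01 against 1.31 and 1.06.

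The calls were also made without the highest cell of each gene, taken from TGFbR-CA alone or from the TGFbR-WT sets alone. This lowers the levels on that side by construction. Without the TGFbR-CA cell with the highest value of each gene, 16 of the 22 higher genes were still called, and *Penk*, *Il21r*, *H2-T23*, *Slc38a2*, *Olfr60* and *2900060B14Rik* were not. Without the highest cell of each TGFbR-WT set, 9 of the 23 lower genes were still called: *mt-Nd1*, *mt-Nd2*, *mt-Nd3*, *mt-Nd4*, *Rps15*, *Tcof1*, *Lpxn*, *Cd37* and *Hsp90aa1*. *Il7r*, *Ccl20*, *Il17re* and *Cst7* were among the 14 that were not. The median log2 ratio of all compared genes moved as well. It was -0.01 with all cells, -0.07 without the highest TGFbR-CA cell and 0.04 without the highest TGFbR-WT cells. Among the 14, the top cell held 3.17% of the TGFbR-WT UMIs for *Tpm3* and 31.2% for *Ccl20*. The *Ccl20* cell was in the larger set, while the nearer ratio was to the smaller one. A lost call alone therefore does not show that it rested on a single cell, since genes near the called ratio are lost too.

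**Figure D5:**
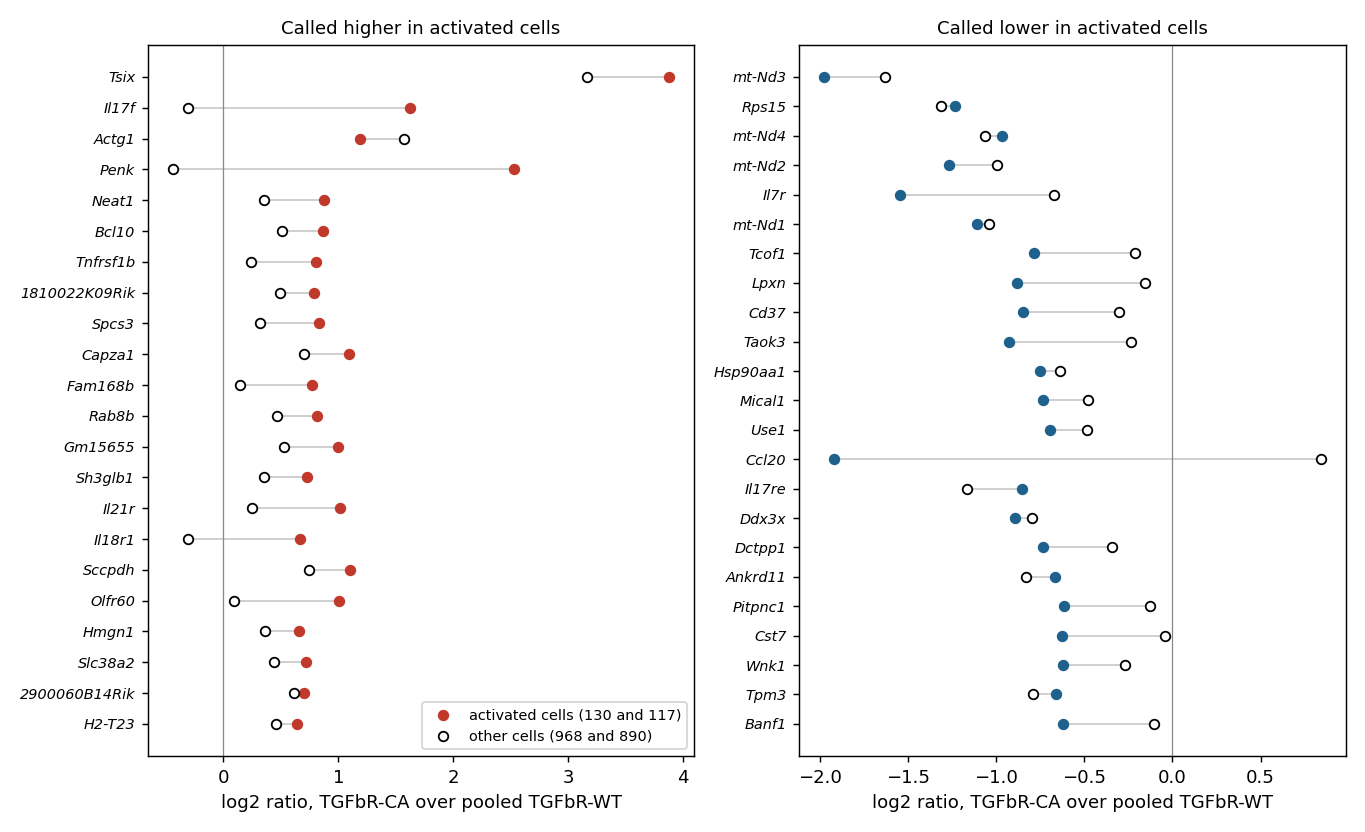
Log2 ratio of TGFbR-CA over pooled TGFbR-WT for the called genes, in activated cells (filled, 130 and 117 cells) and in cells of all other clusters (open, 968 and 890 cells). The mitochondrial genes, *Rps15* and *Actg1* lie close together in both, while *Il17f*, *Penk*, *Il18r1* and *Ccl20* fall on opposite sides of 0.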

How the data were processed

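Droplet-based 3′ scRNA-seq of YFP+CD4+ T cells was analysed. Per the submitters' processing notes, reads were processed with Cell Ranger 3.1.0 on mm10 and analysed with Seurat. The authors filtered cells by detected genes and mitochondrial share, normalized with SCTransform, integrated both sequencing runs, and clustered the cells, taking out γδ T cells and epithelial contaminants. Doublet removal is not stated in the sources used here, and no doublet caller was run. The values deposited by the authors are on a natural log scale, ln(1 + corrected UMIs), for 13265 genes and 5080 cells. Exponentiated and reduced by 1, every value was whole to within 1e-06. The correction sets cells to a common depth, so these are not raw counts and no count model or Poisson interval was used. With 1 TGFbR-CA library, spread between samples could not be measured.

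UMIs were summed over the activated cells of each set and divided by the total without *Gm42418*, *AY036118* and *Lars2*. Groups came from the name starts of the cells and the cluster name from the deposited annotation. The TGFbR-KO cells were matched to their sample by elimination. Named genes were the 12 called with the largest increase and decrease each, called members of the lists, a set of TGFβ, TH17, TH1 and cytotoxic genes whatever their values, and genes at the edge of the ratio. Not every gene under this rule is reported here. *Xist*, *Furin*, *Nt5e*, *Pard6g*, *Il17ra*, *Satb1*, *B2m* and the remaining called genes were picked with their values in view. The members and lists were chosen with earlier results of these data known. Gene coordinates come from GENCODE on GRCm38 (mm10), matched by symbol for 76 of 76 genes, and promoters from RefSeq on GRCm38.p6, without chromosome 18. The steps were run on simulated data with larger changes than most calls here and no extra spread between cells. This run checked the steps and says nothing about the calls made here. Python 3.11.15, numpy 2.4.6, scipy 1.17.1, pandas 2.3.3 and matplotlib 3.10.9 were used.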

Additional observations from a re-analysis of the deposited data

Results flagged for a closer look

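*Ccl20* was lower in activated TGFbR-CA cells against both TGFbR-WT sets and higher in the cells of the other clusters, where its log2 ratio to the nearer set was 0.64. Of these clusters, germinal center TFH cells had *Ccl20* at 1.71 in TGFbR-CA against 0.338 and 0.249, while in migratory (0.446 against 0.0742 and 0.594), pre-tumorigenic (0.133 against 0 and 0.199) and tissue-resident TFH cells (0.0146 against 0.0358 and 0) TGFbR-CA lay between the sets. *Il18r1* was higher in activated cells and below both sets in the other clusters, with a log2 ratio to the nearer set of -0.20. These 2 genes stand here because the differences in the same contrast point in opposite directions in different cells. The differences between the cell groups were not tested, since TGFbR-CA is 1 library.

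The 3 genes left out of the totals were far higher in activated TGFbR-CA cells than in either TGFbR-WT set, which is why they are given here. The log2 ratio to the nearer set was 3.06 for *Lars2*, 3.26 for *Gm42418* and 4.09 for *AY036118*. The levels of *Gm42418* were 503 in TGFbR-CA, 35.6 and 52.4 in the TGFbR-WT sets, and 514 in TGFbR-CA cells of the other clusters. The cause was not tested.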

How the results depend on the processing

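Alternatives changed how many genes were called, and among the named genes none of the called ratios to pooled TGFbR-WT changed sign. With the larger TGFbR-WT set alone 101 genes were higher and 97 lower (of the response lists 21 and 28), with the smaller set alone 175 and 178 (27 and 30), and with pooled TGFbR-WT 54 and 67 (13 and 18), where the main rule gave 22 and 23 (8 and 5). With no gene left out of the total 39 were lower (8 of the lists) and 17 higher, so 30.4% of the calls were higher in place of 48.9%. With ribosomal and mitochondrial genes also left out 3 listed genes were lower, and 58.1% of the calls were higher. With 0.5 added 13 were higher and 9 lower (2 of the lists lower, 59.1% higher). Without the 2 highest cells of each gene 44 were higher and 12 lower (1 of the lists lower, 78.6% higher), an alternative that takes more from the 29-cell set. A minimum of 50 UMIs gave 70 and 70 (13 of the lists higher), 200 gave 6 and 12 (2 and 3), and 1 gave 600 and 393 (29 and 18). A lower ratio gave 81 and 128 (21 of the lists lower) and a ratio of 2 gave 3 and 2 (2 and 0). Chosen after seeing the data, leaving out the highest TGFbR-CA cell gave 16 and 35 calls and leaving out the highest cell of each TGFbR-WT set 42 and 9. Of the 45 called genes, 21 were called under all 12 settings that kept both the minimum and the ratio, not counting the 2 added later. Several of the 12 could not lose a call by construction: each TGFbR-WT set alone, pooled TGFbR-WT and 0.02 added. Leaving out cells above 5% mitochondrial gave the same calls, so the count of settings overstates how far the calls were tried. Shares of activated cells stayed within their intervals. No paired analysis was possible because the TGFbR-CA library carries no number shared with a TGFbR-WT sample and no test was made.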

Other observations

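*Il7r* ranged more widely between clusters than between these sets. In migratory cells, where TGFbR-CA and both TGFbR-WT sets had their highest level, it was at 8.62 in TGFbR-CA, 16 in the larger and 8.46 in the smaller TGFbR-WT set. In tissue-resident TFH cells it was at 4.78 against 7.48 and 5.90, and in germinal center TFH cells at 0.356 against 0.576 and 1.33.

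Some genes of the activated cells were close to only one TGFbR-WT set. They were chosen after their values were seen. *Rgs1*, a regulator of G protein signaling, was at 14.3 in TGFbR-CA, 7.96 in the larger set, 13.1 in the smaller set and 4.41 in TGFbR-KO. *Hopx*, a homeodomain cofactor of effector T cells, was at 4.40, 2.03, 3.60 and 1.61 in the same order. *Il2ra*, the α chain of the IL-2 receptor, was at 0.816, 2.09, 0.818 and 0.633, and *Ly6a*, which encodes Sca-1, at 1.17, 2.53, 1.15 and 10.4. In these 4 genes TGFbR-CA was nearer to the smaller set, the TGFbR-WT set in which *Xist* was detected. The part of *Xist*-positive cells in these values was not tested.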
